A study of Mus musculus with 9 samples.

Results

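Antigen presentation by MHC class II was described through 9 genes, out of 36528 gene rows in the files. These genes were chosen by name for their roles, with earlier results of these data known. They are the chain genes H2-Aa, H2-Ab1 and H2-Eb1, the peptide exchange genes H2-DMa and H2-DMb1, the invariant chain gene Cd74, the activator gene Ciita, and the costimulation genes Cd86 and Cd83. All 9 passed the filter on low counts, together with 12250 genes in all. RNA was sequenced from brain cells of the mouse sorted for Cd11b, an integrin subunit on the surface of microglia and related myeloid cells. There were 5 Tau-P301L libraries (2 female, 3 male), from mice 11 to 12 months old that carried tau with the P301L mutation of familial frontotemporal dementia as a transgene. Against them stood 4 wild-type libraries (2 female, 2 male) from non-transgenic littermates of that age. The labels name neither the promoter that drives the transgene nor a strain, and do not say whether mice were pooled or whether each library is a different animal. All p-values therefore refer to the spread among these libraries, which may be technical.

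MHC class II molecules are pairs of an alpha and a beta chain that show peptides from the endosome to CD4 T cells. The invariant chain, encoded by Cd74, escorts each new pair and blocks its groove, and the H2-DM heterodimer swaps the last piece of invariant chain for a peptide. Ciita does not bind DNA itself but switches on the whole set by docking onto factors held at a shared promoter module, the X and Y boxes. Microglia in a healthy brain carry little class II, border macrophages and dendritic cells carry more, and microglia can gain it in inflammation. Cd86 binds CD28 and CTLA4 on T cells, and Cd83 marks maturing myeloid cells and is known to slow the removal of class II and Cd86 from the cell surface.

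The promoters of the class II genes are shown because they carry the module through which Ciita acts on several of the genes measured here. All 5 H2 genes lie in the MHC of chromosome 17, between 34119693 and 34316674 on GRCm38.p6. RefSeq sequences of 300 bases, from 250 before to 50 after the start of transcription, were at hand for 4 of the 9 genes. In H2-Aa (chr17:34287774-34288073, minus strand), H2-Eb1 (chr17:34305617-34305916, plus strand) and H2-DMb1 (chr17:34152941-34153240, plus strand) a match to the letters CTNGNAAC, the core of the X box where RFX binds, was followed by ATTGG, the Y box where NF-Y binds. Both are in capitals below, as is the palindrome TGACGTCA in H2-Aa, the element that CREB-family factors bind. Sequences read 5′ to 3′ on the strand of the gene.
H2-Aa: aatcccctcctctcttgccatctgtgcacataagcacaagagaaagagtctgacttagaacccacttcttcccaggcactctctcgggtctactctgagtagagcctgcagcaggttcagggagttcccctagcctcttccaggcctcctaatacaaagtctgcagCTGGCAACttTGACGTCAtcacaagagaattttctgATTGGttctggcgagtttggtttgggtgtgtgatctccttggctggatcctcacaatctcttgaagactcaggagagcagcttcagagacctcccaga
H2-Eb1: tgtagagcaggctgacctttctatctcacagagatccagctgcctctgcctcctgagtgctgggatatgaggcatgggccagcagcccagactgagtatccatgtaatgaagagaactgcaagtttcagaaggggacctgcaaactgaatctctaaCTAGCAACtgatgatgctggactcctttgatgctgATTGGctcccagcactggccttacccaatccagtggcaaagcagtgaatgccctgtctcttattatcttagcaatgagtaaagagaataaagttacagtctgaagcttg
H2-DMb1: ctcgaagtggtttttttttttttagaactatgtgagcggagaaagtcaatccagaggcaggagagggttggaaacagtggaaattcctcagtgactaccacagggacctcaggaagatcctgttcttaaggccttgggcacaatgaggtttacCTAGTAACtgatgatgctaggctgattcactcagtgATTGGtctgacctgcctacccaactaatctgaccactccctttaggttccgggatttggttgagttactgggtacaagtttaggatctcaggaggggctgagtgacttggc

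The X box match began 84 bases before the start in H2-Aa, 94 in H2-Eb1 and 97 in H2-DMb1. The Y box began 36, 35 and 36 bases further on. Searched on both strands, CTNGNAAC was present in 13.15% of 32851 RefSeq promoter windows of this length, ATTGG in 37.41% and TGACGTCA in 1.79%, and the windows with the first pair on the same strand at 30 to 40 bases were 47 (0.143%). These letters and distances were set after the sequences had been read. H2-Eb1 held a further ATTGG on the opposite strand, 35 bases before the start. For H2-DMa, 2 windows were listed (chr17:34122582-34122881 and chr17:34125268-34125567, plus strand). Neither held the pair, and 1 held ATTGG alone. Both windows lie inside the H2-DMa gene model, which overlaps that of Brd2. Any other start of H2-DMa was not searched, so the absence of the pair holds for these windows only.

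The sorted cells carried the markers of microglia. Libraries held 1494727 to 3793606 reads counted in genes. Itgam, the gene of Cd11b, averaged 2663 ± 335.1 CPM (read counts relative to the TMM-scaled library size) in Tau-P301L against 2864 ± 236.8 CPM in wild-type libraries (n = 5 and 4, SD). The 9 microglial markers used here, led by Cx3cr1, Siglech, P2ry12 and Csf1r, summed to 7669 to 13362 CPM in Tau-P301L against 9383 to 13301 CPM in wild-type libraries. Of these 9 markers, 0 passed the test between genotypes in edgeR, 8 had lower and 1 a higher estimate in Tau-P301L, beside 6132 lower and 6118 higher over all tested genes. An unadjusted p under 0.05 in the lower direction was found for 2 of them and for 2.78% of all genes. Libraries are numbered within each genotype only to name them, with libraries 1 and 2 female and the rest male in both.

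Measured per length in the authors' size-factor-adjusted RPKM (nRPKM), H2-Aa was the most abundant of the 9 genes in both groups and Ciita the least. H2-Aa averaged 27.3 ± 14.5 nRPKM in Tau-P301L and 16.9 ± 11.8 nRPKM in wild-type libraries (n = 5 and 4, SD). H2-Ab1 followed with 15.7 ± 8.64 and 15.0 ± 7.54 nRPKM, and Cd74 with 14.6 ± 7.44 and 14.1 ± 4.54 nRPKM, for Tau-P301L and wild-type libraries in that order. Neighbours among these 3 differed by less than the SD of the higher gene. Cd86 came next with 5.59 ± 1.45 nRPKM in Tau-P301L and 4.61 ± 1.199 nRPKM in wild-type libraries, below Cd74 by more than the SD of either gene. Below it the order differed between the groups. Cd83 stood between Cd86 and H2-Eb1 in Tau-P301L libraries at 4.15 ± 1.15 nRPKM, and between H2-Eb1 and H2-DMa in wild-type libraries at 1.72 ± 0.419 nRPKM. H2-Eb1 stood at 2.53 ± 1.21 and 2.45 ± 1.74 nRPKM, and H2-DMb1 at 2.52 ± 0.807 and 3.50 ± 1.42 nRPKM, in Tau-P301L and wild-type libraries. H2-DMa averaged 0.898 ± 0.658 nRPKM in Tau-P301L and 1.52 ± 0.462 nRPKM in wild-type libraries. Ciita averaged 0.272 ± 0.127 nRPKM in Tau-P301L and 0.271 ± 0.115 nRPKM in wild-type libraries, under H2-DMa by more than either SD in wild type and by less than the SD of H2-DMa in Tau-P301L. H2-Eb1 and H2-DMb1 differed from each other by less than their SD in both groups.

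The comparison of genotypes asked how brain myeloid cells differ in mice with mutant tau. None of the 9 genes passed an adjusted p of 0.05 over all genes in edgeR's quasi-likelihood test, against 1 of the 12250 genes tested (0.00816%), which was Rfk. At an unadjusted p under 0.05 there was 1 of the 9, Cd83, where 6.35% of all genes had such a p, and 3.57% had one with a higher estimate in Tau-P301L. DESeq2 and limma-voom also called 0 of the 9, and DESeq2 called 0.152% of the genes to which it gave an adjusted p. The estimates were higher in Tau-P301L for 3 and lower for 6 of the 9 genes, with a median log2 fold change of -0.01, beside 6118 higher, 6132 lower and a median of 0.00 over all tested genes. In bulk libraries, fewer cells that carry a transcript and less transcript per cell cannot be told apart.

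Cd83 (chr13:43785112-43803133) was the gene of this group with the largest difference between the genotypes. In Tau-P301L libraries 1 to 5 it stood at 52.4, 37.1, 26.5, 39.8 and 27.2 CPM, against 19.6, 14.7, 10.3 and 16.6 CPM in wild-type libraries 1 to 4. Every Tau-P301L library was above every wild-type library. Such a separation upwards was seen for 1 of the 9 genes and for 1.31% of all tested genes, and a separation in either direction for 2.48%. The means were 36.6 ± 10.6 CPM in Tau-P301L against 15.3 ± 3.89 CPM in wild-type libraries (n = 5 and 4, SD), a log2 fold change of 1.29 (SE 0.35), or 2.44-fold with a 95% interval of 1.46 to 4.07. The adjusted p was 0.505 in edgeR and 0.0662 in DESeq2, so the difference missed the threshold in both, and Cd83 ranked 39 of 12250 by edgeR's p. The two-sided exact permutation test gave p = 0.00794, the smallest that 5 against 4 libraries can give. In the recomputed fits the log2 fold change lay between 1.17 and 1.46, with adjusted p between 0.0662 and 0.9997. The estimate was 1.38 (SE 0.49) in females alone and 1.21 (SE 0.59) in males alone, and the interaction of genotype with sex was -0.18 (adjusted p of 0.99999 in edgeR).

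**Figure D1:**
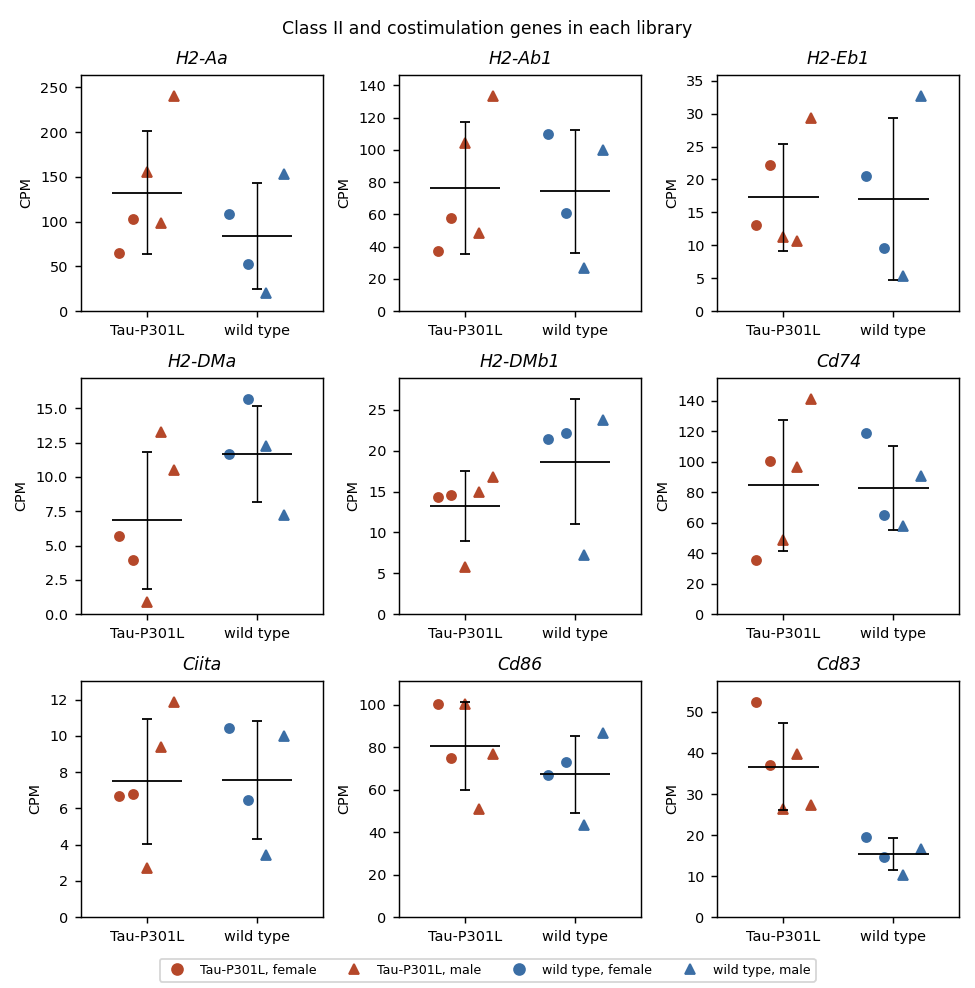
CPM of each of the 9 genes in each library (vertical axes, each from 0), with Tau-P301L left of wild type, circles for females, triangles for males, and lines and bars for the mean and SD. The groups overlap in 8 panels and separate for Cd83, where Tau-P301L libraries lie at 26.5 to 52.4 CPM and wild-type libraries at 10.3 to 19.6 CPM.

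Cd86 (chr16:36568956-36666158), the ligand of CD28, stood at 100.4, 75.0, 100.45, 50.9 and 76.8 CPM in Tau-P301L libraries 1 to 5 and at 66.8, 73.0, 43.2 and 86.7 CPM in wild-type libraries 1 to 4. The groups overlapped over most of their range, with the lowest value in a wild-type male and the next in a Tau-P301L male. Its log2 fold change was 0.27 (SE 0.29, adjusted p of 0.881 in edgeR), with a 95% interval of -0.33 to 0.87. The estimate for Cd83 lay outside this interval, but the 2 genes were not tested against each other.

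The alpha chain H2-Aa (chr17:34282744-34287823) had overlapping groups with a wide spread in both. In Tau-P301L libraries 1 to 5 it stood at 65.1, 103.2, 155.6, 98.3 and 240.2 CPM, and in wild-type libraries 1 to 4 at 108.2, 52.5, 20.7 and 153.7 CPM. The highest value was that of Tau-P301L library 5, a male and the shallowest library, and the lowest that of wild-type library 3, also a male. Its log2 fold change was 0.52 (SE 0.47, adjusted p of 0.862 in edgeR). The estimate was 0.07 without wild-type library 3, 1.06 without wild-type library 4 and 0.30 without Tau-P301L library 5. Without both Tau-P301L libraries 3 and 5 it was 0.10, so the size of the difference depended on a few libraries of either genotype. The estimate was 0.06 in females alone and 0.92 in males alone.

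H2-Ab1 (chr17:34263227-34269418) encodes the beta chain that pairs with H2-Aa, and its group means were nearly equal. It stood at 37.2, 57.5, 104.03, 48.7 and 133.4 CPM in Tau-P301L libraries 1 to 5 and at 109.7, 61.0, 26.8 and 99.97 CPM in wild-type libraries 1 to 4. The highest library was a Tau-P301L male and the lowest a wild-type male, and the groups overlapped. The log2 fold change was -0.08 (SE 0.42, adjusted p of 0.979 in edgeR, 95% interval -0.96 to 0.79). Both Tau-P301L females were below both wild-type females, while the males overlapped, and the interaction of genotype with sex, at 1.43 log2 units with an unadjusted p of 0.0718, had an adjusted p of 0.99999 in edgeR.

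H2-Eb1 (chr17:34305867-34316674) is the beta chain of the E molecule, for whose alpha chain gene H2-Ea the data held no count. It stood at 13.02, 22.1, 11.2, 10.7 and 29.3 CPM in Tau-P301L libraries 1 to 5 and at 20.5, 9.55, 5.36 and 32.7 CPM in wild-type libraries 1 to 4. The groups overlapped fully, and both the highest and the lowest value were wild type. The log2 fold change was 0.00 (SE 0.50, adjusted p of 0.999 in edgeR), with a 95% interval of -1.05 to 1.04. This wide interval is for H2-Eb1 alone, without adjustment over all genes, and is not a limit of detection.

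Across the 9 libraries H2-Aa and H2-Ab1 were high and low in much the same libraries. H2-Aa and H2-Ab1 had a Pearson r of 0.875 on log2 CPM (exact permutation p = 0.00118, adjusted p = 0.0106 over the 9 relations examined) and a Spearman rho of 0.85 (exact permutation p = 0.00607, adjusted p = 0.0547). Without wild-type library 3 and Tau-P301L library 5, the 2 libraries farthest from the median of H2-Ab1, r was 0.70 over 7 libraries. With each genotype centred on its own mean, r was 0.957. H2-Eb1 followed H2-Ab1 less closely (r = 0.74, exact permutation p = 0.0251, adjusted p = 0.113; rho = 0.583, adjusted p = 0.243), and r was 0.434 without those 2 libraries.

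The ratio of alpha to beta reads within a library was examined after these values had been seen. H2-Aa had 1.75, 1.795, 1.496, 2.02 and 1.801 reads per H2-Ab1 read in Tau-P301L libraries 1 to 5, against 0.986, 0.860, 0.771 and 1.54 in wild-type libraries 1 to 4. The Tau-P301L libraries all had more H2-Aa than H2-Ab1 reads, 3 of the 4 wild-type libraries had fewer, and the groups crossed only in wild-type library 4 and Tau-P301L library 3. Exact 95% binomial intervals, which cover counting error only, were 1.34 to 1.76 for the first and 1.26 to 1.77 for the second of these. The mean ratio was 1.77 ± 0.186 in Tau-P301L and 1.04 ± 0.344 in wild-type libraries (n = 5 and 4, SD), a difference of 0.82 on the log2 scale. The two-sided exact permutation p was 0.0159, and 0.0952 after adjustment over the 6 ratios computed, so the ratio failed the correction. Without Tau-P301L library 1, 2, 4 or 5 the unadjusted p was 0.0571, with differences of 0.77 to 0.82.

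**Figure D2:**
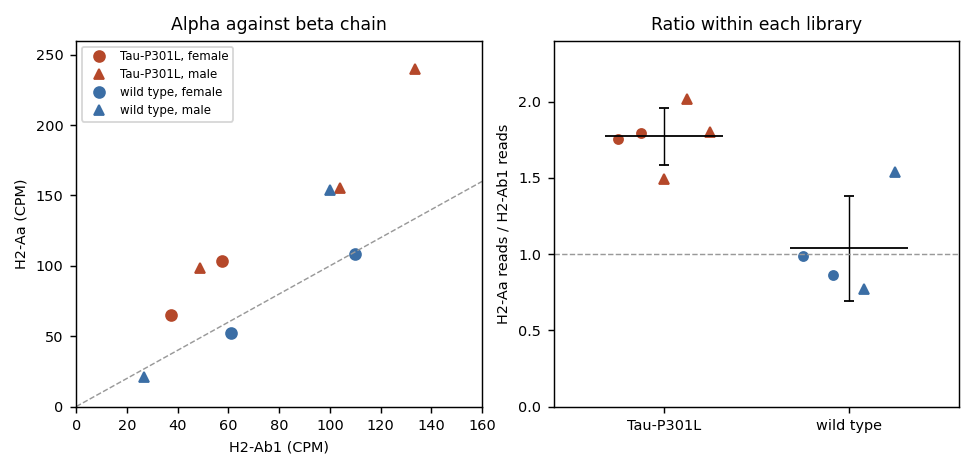
Left, H2-Aa against H2-Ab1 in CPM, 1 point per library, with a dashed line where both are equal. Right, the ratio of H2-Aa to H2-Ab1 reads by genotype, with Tau-P301L left of wild type and lines and bars for mean and SD; Tau-P301L libraries lie at 1.496 to 2.02 and wild-type libraries at 0.771 to 1.54.

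Cd74 (chr18:60803849-60812652), the invariant chain, had nearly equal means in both groups. It stood at 35.6, 100.7, 48.4, 96.2 and 141.1 CPM in Tau-P301L libraries 1 to 5 and at 118.6, 65.1, 57.8 and 90.3 CPM in wild-type libraries 1 to 4. The Tau-P301L libraries spanned the whole wild-type range and beyond it on both sides. Means were 84.4 ± 42.7 CPM in Tau-P301L against 82.9 ± 27.6 CPM in wild-type libraries (n = 5 and 4, SD), with a log2 fold change of -0.01 (SE 0.36, with an adjusted p of 0.999 in edgeR, 95% interval -0.77 to 0.75). With H2-Ab1 it had an r of 0.565 (exact permutation p = 0.114, adjusted p = 0.206; rho = 0.583), and without wild-type library 3 and Tau-P301L library 5 r was 0.393. The microRNA gene Mir5107, with 48 reads in all, lies over 88 bases of the Cd74 gene.

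The H2-DM genes had lower estimates in Tau-P301L, on few reads. H2-DMa (chr17:34119693-34139101) had 18, 11, 2, 31 and 15 reads in Tau-P301L libraries 1 to 5 and 38, 46, 32 and 26 reads in wild-type libraries 1 to 4. These correspond to 5.72, 3.93, 0.897, 13.3 and 10.5 CPM in Tau-P301L and to 11.6, 15.7, 12.2 and 7.20 CPM in wild-type libraries. Tau-P301L libraries 1, 2 and 3 were below every wild-type library, and libraries 4 and 5 were among them. The log2 fold change was -0.82 (SE 0.62, adjusted p of 0.830 in edgeR, 95% interval -2.12 to 0.48). The gene model of H2-DMa overlaps that of Brd2, a chromatin reader, by 3122 bases, and Brd2 had 5004 reads in all against 219 for H2-DMa, so reads of the shared part cannot be assigned with certainty.

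H2-DMb1 (chr17:34153191-34160229) stood at 14.3, 14.6, 5.83, 15.0 and 16.8 CPM in Tau-P301L libraries 1 to 5 and at 21.5, 22.2, 7.27 and 23.8 CPM in wild-type libraries 1 to 4. Within each group library 3, a male in both, was low and the others lay close together. Apart from the low wild-type library, all wild-type values were above all Tau-P301L values, but the log2 fold change of -0.45 (SE 0.45) had an edgeR adjusted p of 0.869. It was -0.75 without wild-type library 3 and -0.08 without wild-type library 4 at the ends of the range. H2-DMb1 shares most of its sequence with its neighbour H2-DMb2, so reads that fit both could be lost from either. H2-DMa and H2-DMb1 had an r of 0.579 (exact permutation p = 0.0961, adjusted p = 0.206; rho = 0.45), which was -0.06 without Tau-P301L libraries 2 and 3.

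Ciita (chr16:10480014-10531064), the activator, was scarce in every library, with 6 to 36 reads. It stood at 6.67, 6.78, 2.69, 9.41 and 11.9 CPM in Tau-P301L libraries 1 to 5 and at 10.4, 6.48, 3.44 and 9.97 CPM in wild-type libraries 1 to 4. Both groups were lowest in their library 3 and overlapped over the rest of the range. The log2 fold change was -0.03 (SE 0.58, adjusted p of 0.993 in edgeR), with a 95% interval of -1.25 to 1.18. Ciita had an r of 0.41 with H2-Ab1 (exact permutation p = 0.274, adjusted p = 0.353; rho = 0.533), and of -0.09 without wild-type library 3 and Tau-P301L library 5, so the relation rests on those libraries. As a description without a test, its r was 0.867 with H2-DMb1 (rho = 0.65), 0.72 with Cd74 (rho = 0.833) and 0.71 with H2-Eb1 (rho = 0.717). It was 0.556 with H2-DMa (rho = 0.133), 0.485 with H2-Aa, 0.23 with Cd83 and -0.004 with Cd86. Ciita and H2-DMb1 were both lowest in library 3 of each group. Ciita overlaps Dexi, a gene of 325 reads, by 858 bases.

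**Figure D3:**
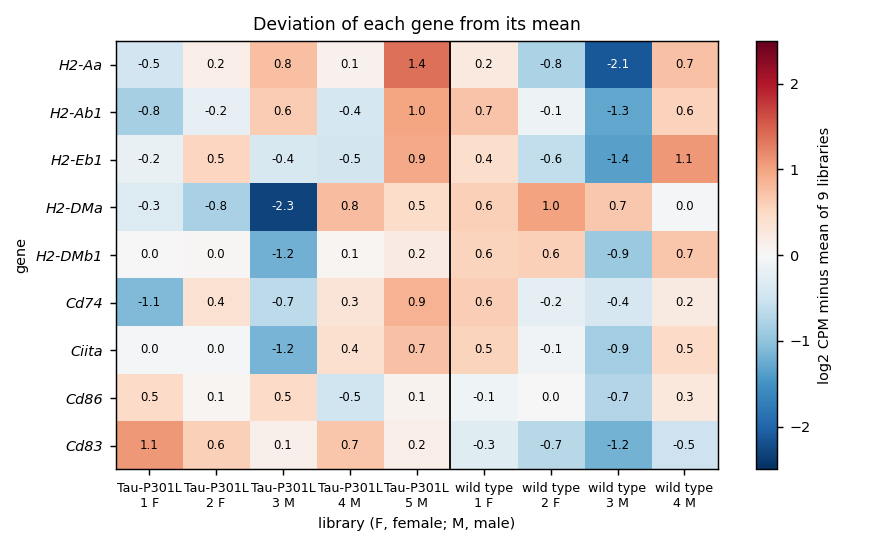
Deviation of log2 CPM from the gene's mean over 9 libraries, with genes in rows and libraries in columns (Tau-P301L left, F for female and M for male). Wild-type library 3 is low in all genes but H2-DMa, Tau-P301L library 5 is above the mean in all 9, and Tau-P301L library 3 has H2-Aa and H2-Ab1 above and H2-Eb1, H2-DMa, H2-DMb1, Cd74 and Ciita below their means.

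The summed CPM of the 3 chains, H2-DMa, H2-DMb1 and Cd74 was 170.9, 302.1, 326.0, 282.2 and 571.2 in Tau-P301L libraries 1 to 5 and 390.2, 226.1, 130.1 and 407.6 in wild-type libraries 1 to 4. The groups overlapped, and the sum varied over 3-fold within each of them. Cd86 and Cd83 did not move closely with each other (r = 0.425, exact permutation p = 0.256, adjusted p = 0.353; rho = 0.35). As a description, the r of Cd83 with H2-Ab1 was 0.00, and that with H2-Aa was 0.42.

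No call was made for sex among the 9 genes. In the same fit, 0 of the 9 passed an adjusted p of 0.05 for males over females in edgeR, against 0.049% of all genes, and 0 had an unadjusted p under 0.05, against 2.43%. The smallest unadjusted p was 0.214, for Cd83, with a log2 difference of -0.44 (SE 0.34) for males over females. The interaction of genotype with sex was called for 0 of the 9 genes and 0% of all genes, and at an unadjusted p under 0.05 for 0 of the 9 and 3.95% of all genes.

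**Figure D4:**
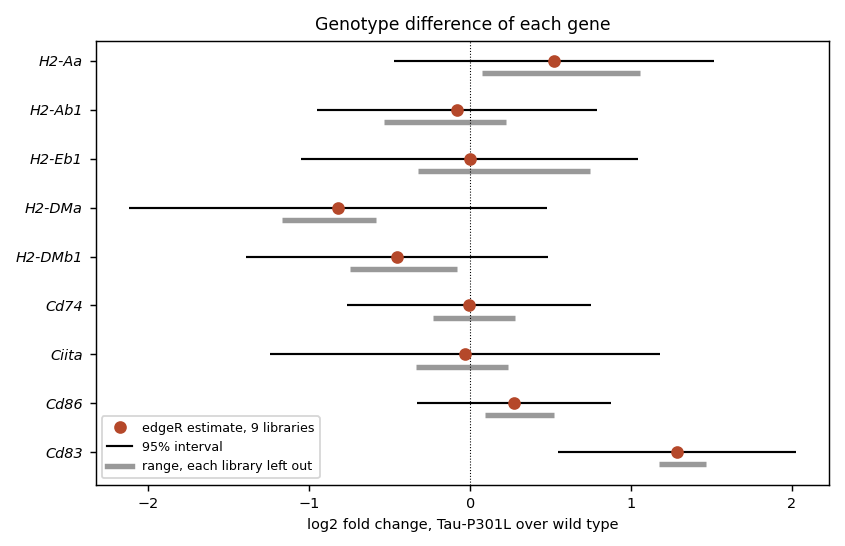
Log2 fold change of Tau-P301L over wild type for each gene (horizontal axis), with the edgeR estimate as a point, its 95% interval as a black line and the range over fits that left out 1 library as a grey bar. The interval lies above 0 for Cd83 and spans 0 for the other 8 genes.

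Other genes of the pathway were counted from lists chosen by role, with earlier results of these data known. In the class II region, 4 of the 5 listed genes had counts, all but H2-Ea. Of these, 2 passed the low-count filter and 0 passed the test in either direction. H2-DMb2, the second copy of the H2-DM beta chain, had 1, 4, 0, 7 and 3 reads in Tau-P301L libraries 1 to 5 and 6, 30, 18 and 11 reads in wild-type libraries 1 to 4. Its log2 fold change was -2.07 (SE 0.93, adjusted p of 0.776 in edgeR). H2-Ob, a chain of H2-DO, the inhibitor of H2-DM, had means of 33.8 ± 8.01 CPM in Tau-P301L against 22.7 ± 5.29 CPM in wild-type libraries (n = 5 and 4, SD) and a log2 fold change of 0.56 (SE 0.34, with an adjusted p of 0.789 in edgeR).

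The factors that hold Ciita at the X and Y boxes were all measured, and 0 of 7 passed the test, with 6 estimates higher, 1 lower and a median of 0.09. Rfx5, the DNA-binding subunit of the RFX complex, averaged 67.3 ± 28.8 CPM in Tau-P301L against 43.4 ± 17.1 CPM in wild-type libraries (n = 5 and 4, SD), a log2 fold change of 0.62 (SE 0.36, with an adjusted p of 0.789 in edgeR). Rfxap, another RFX subunit, had a log2 fold change of 0.47, and Nfyc, a subunit of NF-Y, one of 0.33. Both had means under 6 CPM in either group.

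Of 9 genes of endosomal processing and class II turnover, 0 passed in edgeR, with 6 estimates higher, 3 lower and a median of 0.08. Lgmn, an asparagine-specific endopeptidase of the endosome, averaged 351.1 ± 88.2 CPM in Tau-P301L against 506.6 ± 40.5 CPM in wild-type libraries (n = 5 and 4, SD), a log2 fold change of -0.52 (SE 0.22, with an adjusted p of 0.776). The cathepsins Ctsb and Ctsl had log2 fold changes of 0.28 and 0.26. Lgmn was the 1 gene of this list with an unadjusted p under 0.05 in the lower direction, where 2.78% of all genes had one.

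Among 10 further costimulatory or inhibitory ligands, 6 passed the low-count filter and 0 passed the test in edgeR, with 3 estimates in each direction. Cd274, which encodes the inhibitory ligand PD-L1, averaged 48.0 ± 15.4 CPM in Tau-P301L against 20.9 ± 6.73 CPM in wild-type libraries (n = 5 and 4, SD), and every Tau-P301L library was above every wild-type library. Such a separation upwards was seen for 1 of the 6 tested genes of this list and for 1.31% of all tested genes. The log2 fold change of Cd274 was 1.17 (SE 0.36, with an unadjusted p of 0.00382 and an adjusted p of 0.593 in edgeR). Icam1, an adhesion ligand, had a log2 fold change of -0.48 and Icosl, the ligand of ICOS, one of 0.27. Cd80, the close relative of Cd86, averaged 57.4 ± 10.6 CPM in Tau-P301L against 64.2 ± 14.4 CPM in wild-type libraries and is named here after its values were seen.

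Interferon-gamma is the main inducer of Ciita, and of 8 genes of its signalling chain 7 were tested and 0 passed in edgeR, with 2 estimates higher, 5 lower and a median of -0.14. Jak2, a kinase bound to the receptor, averaged 100.9 ± 53.4 CPM in Tau-P301L against 57.1 ± 13.7 CPM in wild-type libraries (n = 5 and 4, SD), a log2 fold change of 0.80 (SE 0.35, with an adjusted p of 0.776). Jak1, its partner kinase, had a log2 fold change of 0.34, and Irf8, a myeloid transcription factor, one of -0.30.

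**Figure D5:**
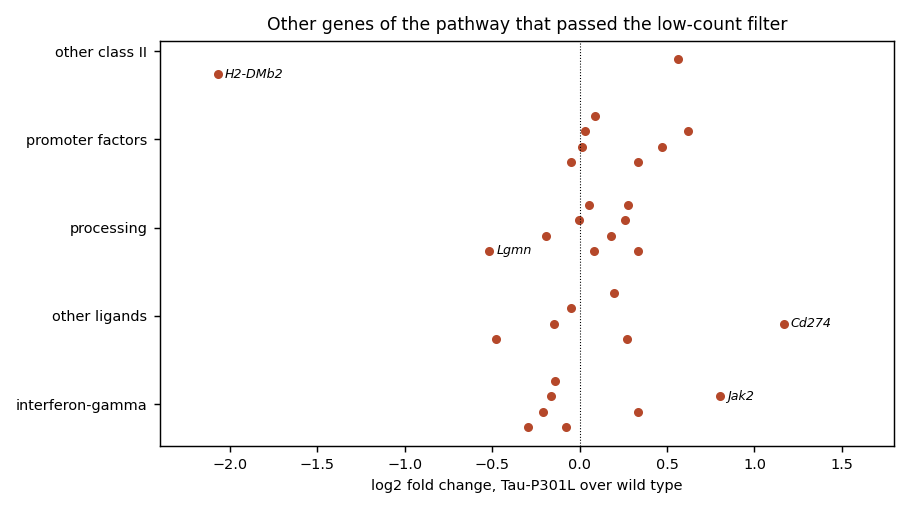
Log2 fold change of Tau-P301L over wild type (horizontal axis) for the 31 other pathway genes that passed the low-count filter, 1 point per gene, by list; vertical offsets within a list only separate points. Genes with an unadjusted p under 0.05 are named, and none passed after adjustment.

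Markers of other immune cells, among them cells that carry class II, were low, and some had no reads in any library. The 9 markers of border macrophages, led by Mrc1, Cd163, Ms4a7 and F13a1, summed to 54.6 to 100.3 CPM in Tau-P301L against 33.7 to 131.2 CPM in wild-type libraries. Their sum was highest in wild-type library 1 and lowest in wild-type library 3, which were also the highest and the lowest library for H2-Ab1 within wild type. Among Tau-P301L libraries the highest for H2-Ab1, library 5, had a border macrophage sum of 63.5 CPM, below the 100.3 and 99.998 CPM of libraries 2 and 3. H2-Ab1 had an r of 0.59 with Mrc1, the mannose receptor (exact permutation p = 0.0963, adjusted p = 0.206; rho = 0.583), and of 0.921 without wild-type library 3 and Tau-P301L library 5. For Cd74 and Mrc1 r was 0.247 (exact permutation p = 0.513, adjusted p = 0.577; rho = 0.333), and 0.373 without Tau-P301L libraries 1 and 3. The part of border macrophages in the class II levels was not tested.

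The 10 dendritic cell markers were led by Zbtb46, Irf4, Clec9a and Flt3, and 5 of the 10 passed the low-count filter. Their sum was 55.2 to 272.2 CPM in Tau-P301L against 37.5 to 105.7 CPM in wild-type libraries, with overlap. Over all libraries Zbtb46 had 1196 and Irf4 463 reads, while Ccr7 had 2, Ly75 7 and Xcr1 8. The highest sum was in Tau-P301L library 3, where Zbtb46 had 380 and Irf4 153 of 607 reads. H2-Ab1 and the dendritic cell lectin Cd209a, which was too low to test, had an r of 0.05 (exact permutation p = 0.90, adjusted p = 0.90; rho = 0.0678), and of -0.33 without wild-type library 3 and Tau-P301L library 5. The 8 monocyte markers, of which Ccr2 was the highest, summed to 17.5 to 64.8 CPM in Tau-P301L against 20.3 to 68.2 CPM in wild-type libraries. Of 6 B cell markers measured, Pax5 had 0 reads in all libraries, and the sum, mostly Cr2, was 12.4 to 27.2 CPM in Tau-P301L against 5.36 to 11.9 CPM in wild-type libraries. Cr2, a complement receptor, had a log2 fold change of 1.17 (SE 0.49, with an adjusted p of 0.772 in edgeR). Of 8 T cell markers measured, Cd3e and Cd3g had 0 reads in all libraries, and the sum was 0.855 to 25.1 CPM in Tau-P301L against 1.53 to 4.43 CPM in wild-type libraries, with Cd28 at 36 reads in Tau-P301L library 5. The B cell sum was the 1 marker sum here whose groups did not overlap, while Cr2 alone had overlapping groups, at 8.55 CPM in the lowest Tau-P301L and 8.58 CPM in the highest wild-type library. Cd79b, a subunit of the B cell receptor, averaged 1.197 CPM in Tau-P301L against 1.76 CPM in wild-type libraries, and Ms4a1, which encodes CD20, averaged 0 CPM in Tau-P301L against 0.383 CPM in wild-type libraries. The part of these cells in the difference of Cd83 was not tested.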

How the data were processed

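Per the file headers, the authors deposited for each library a count of uniquely aligned reads for each gene model and an RPKM adjusted by a size factor. Alignment was with GSNAP to GRCm38, per the submitters' processing notes, and neither a version nor an annotation is given in the sources used here. RPKM to count ratios were a constant per gene times 1 factor per library (largest relative deviation 1.3e-14), so RPKM served only for levels between genes. Symbols, positions and promoters came from RefSeq on GRCm38.p6, with a symbol for 31049 of 36528 gene numbers. Class II genes vary between mouse strains and near-identical or overlapping genes share reads, which unique alignment to 1 reference can undercount, and counting is not stated to use strand.

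Counts were tested with edgeR 4.0.16 (TMM, default low-count filter, robust quasi-likelihood F test, sex and genotype as terms, Benjamini-Hochberg over all tested genes at 0.05). SE were derived from the F statistic. Log2 CPM used a prior count of 2. DESeq2 1.42.0 and limma-voom (limma 3.58.1) were alternatives, and the steps were tested on simulated data. At these depths 3 reads are 0.791 to 2.01 CPM before scaling. Replicates differed beyond sampling noise in every pair (lowest chi-square over its degrees of freedom 11.6). Genes and lists were chosen with earlier results of these data known. From each list the genes past the threshold, or else the 3 of smallest p, are named. From marker lists those of highest mean are named, and from likeness of pattern the 5 of highest r among genes with a symbol. Of the marker lists, 1 microglial and 1 B cell gene are not reported here.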

Additional observations from a re-analysis of the deposited data

Results flagged for a closer look

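H2-DMb1 was low in 1 library of each genotype, far from the other libraries of that genotype. It stood at 5.83 CPM in Tau-P301L library 3, where the gap to the next library was 0.775 of the whole range of the group. In wild-type library 3 it stood at 7.27 CPM, with a gap of 0.857 of the range. Both are males. These were 2 of 18 groups of values examined for a library standing apart, and chance marks about 1 in 20. Ciita was also lowest in these 2 libraries.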

How the results depend on the processing

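No alternative called any of the 9 genes. Over 19 settings per gene, 138 of 171 log2 fold changes kept their direction and 33 turned it, all 33 in H2-Ab1, H2-Eb1, Cd74 and Ciita, whose estimates lay near 0. The smallest adjusted p was 0.0662, for Cd83 in DESeq2. Over all genes, the count of calls was 20 with DESeq2, 26 without the low-count filter, 0 to 1 with 1 library left out, 0 without both Tau-P301L libraries 3 and 5, 0 in females alone and 0 in males alone. The cause of these shifts was not tested. H2-Ab1 turned to 0.0341 without the sex term and 0.59 in males alone. It kept its sign but moved to -0.86 in females alone and to -0.67 without both Tau-P301L libraries 3 and 5. H2-DMa also kept its sign, at -1.49 in females alone and -0.25 in males alone. H2-Eb1 turned to 0.0227 with DESeq2, 0.13 with limma-voom, 0.0202 with RLE scaling, 0.01004 with a stricter low-count filter, 0.00869 without the sex term and 0.21 in females alone. Cd74 turned to 0.00667 with DESeq2, 0.00736 with RLE scaling, 0.000956 with the stricter filter, 0.0257 without the sex term and 0.36 in males alone, and Ciita to 0.23 in males alone. With 1 library left out, log2 fold changes ranged from -0.53 to 0.22 for H2-Ab1, -0.32 to 0.74 for H2-Eb1, -0.23 to 0.28 for Cd74 and -0.34 to 0.24 for Ciita. Those of the other genes kept their sign, at 0.07 to 1.06 for H2-Aa, -1.17 to -0.59 for H2-DMa, -0.75 to -0.08 for H2-DMb1, 0.10 to 0.52 for Cd86 and 1.17 to 1.46 for Cd83. The ratio of H2-Aa to H2-Ab1 differed by 0.69 to 1.02 on the log2 scale, with exact permutation p of 0.0159 to 0.333, over alternatives chosen after seeing the data. The p of 0.333 came from females alone, where 2 against 2 libraries can give no smaller two-sided value. No paired analysis was possible because the labels do not link any Tau-P301L library to a wild-type library. Depth limits H2-DMa and Ciita most, with as few as 2 and 6 reads in a library.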

Other observations

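Among the 12250 tested genes, those whose log2 CPM followed a gene of the class II set most closely over the 9 libraries were mostly outside the set. For H2-Ab1 they were Alkbh8, Slc7a2, Nfib, Elovl7 and Rph3a (Pearson r of 0.917 to 0.939), and H2-Aa came at rank 19. For Cd74 they were Sorbs3, Elovl6, Sptbn1, Lsm11 and Ppl (0.918 to 0.943), with Ciita at rank 224 and H2-Eb1 at rank 571. For Cd86 they were Commd8, Dipk1a, Ssbp1, Zfp946 and Prdm1 (0.948 to 0.968), with H2-Aa at rank 1329. For Cd83 they were Tex12, Timm10b, Zfp595, Cytip and Gm30845 (0.925 to 0.960), with Cd86 at rank 1697. With 9 libraries and so many genes, high values of r are found for many genes, and all genes of a library share its depth and scaling.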
